A study of Saccharomyces cerevisiae with 24 samples.

Results

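The regions described here lie in the last 50 kb of the yeast chromosomes, and they were measured by chromatin immunoprecipitation and sequencing (ChIP-seq) of the transcription factor Yrr1. They are the regions of the deposited region table whose midpoint is at most 50000 bp from either end of a nuclear chromosome and that overlap no annotated tRNA gene. The rule gave 176 of the 1711 regions, and 7 further regions within that distance were left out because they overlap a tRNA gene. No measured value entered the rule. The nearest regions at the limit were a FLO11 region, inside at 49988.5 bp, and an SMC2 region, outside at 50104.5 bp.

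Saccharomyces cerevisiae S96 cells deleted for their own YRR1 gene (yrr1Δ) carried a Myc-tagged YRR1 allele, either that of strain YJM789, that of S96, or the S96 allele with the substitution I775E. Cultures of each allele were split between plain rich medium, YPD, and the same medium holding 0.25 µg/ml of the DNA-damaging compound 4NQO (4-nitroquinoline-N-oxide), and grown on for 2.5 h. Each of the 6 groups has 3 anti-Myc ChIP libraries and 1 input library, 18 ChIP and 6 input libraries in all. All groups share the yrr1Δ background and the Myc tag, and no untagged strain was analysed here. The growth protocol speaks of duplicate cultures and the design text of triplicates, so the libraries of a group may be partly technical repeats, and p-values cover only their spread. Each group has its own single input, so that a difference between groups and a difference between their inputs cannot be told apart. The depth of the libraries is unknown, since the tables used here hold no read counts.

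Yeast chromosomes end in telomeres, irregular repeats of TG with 1 to 3 G per unit on the strand that runs toward the end, bound by Rap1 in living cells. Inside the telomere lies an X element at every end, and at many ends also a Y' element, which carries the YRF1 helicase genes. Short runs of the same repeat also stand inside the chromosome, between the X and Y' elements. Subtelomeres hold gene families of near-identical copies, such as the PAU and COS genes, and are silenced in part by Sir proteins. Yrr1 itself is a zinc cluster activator of drug resistance genes.

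Of the 176 regions, 61 overlapped an annotated telomeric region, 47 of them at ends with a Y' element and 14 at ends with an X element alone. The regions were dense at the ends, with 2.69 regions per 10 kb in the outermost 5 kb (43 regions) and 1.25 between 5 and 10 kb (20 regions). The density was 0.656 per 10 kb between 10 and 20 kb and rose again to 1.38 between 40 and 50 kb, beside 1.24 in the rest of the nuclear genome. Much of this sequence is repeated elsewhere in the genome. Of the 50-base words, 50% or more recurred in 56 of the 176 regions (31.8%), against 8.09% of the 1298 other nuclear regions without a tRNA gene, and in 42 of the 61 telomeric ones. Reads from such copies cannot be assigned to one locus with certainty, and the sources used here do not say how the authors placed them. Overlap with a replication origin (ARS) was annotated for 13 regions (7.39%), against 1.93% of the others.

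The sequences that the results turn on are the telomeric repeat tracts themselves. A tract was counted where at least 4 consecutive units of TG, TGG or TGGG, or of their complement, stood in the reference genome. At least 100 tract bases were found in 11 regions, all with their midpoint at most 13366 bp from an end, of which 6 lay at the chromosome end and 5 inside the chromosome, on arms with a Y' element. At least 50 tract bases were found in 16 regions and in 0 of the 1298 other regions. This grouping was made after the values had been seen. The longest end tracts, internal tracts and an end tract with no change called with 4NQO are printed here. Each is given as 300 bases of the plus strand of sacCer3, with tract bases in capitals.
III left end, near YCL075W (chrIII:1-300): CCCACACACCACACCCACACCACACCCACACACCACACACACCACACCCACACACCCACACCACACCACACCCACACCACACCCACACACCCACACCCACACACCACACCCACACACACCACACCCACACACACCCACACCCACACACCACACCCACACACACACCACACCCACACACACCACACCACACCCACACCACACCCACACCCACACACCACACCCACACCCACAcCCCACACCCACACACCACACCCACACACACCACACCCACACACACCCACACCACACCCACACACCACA
XIV right end, before YNR077C (chrXIV:784034-784333): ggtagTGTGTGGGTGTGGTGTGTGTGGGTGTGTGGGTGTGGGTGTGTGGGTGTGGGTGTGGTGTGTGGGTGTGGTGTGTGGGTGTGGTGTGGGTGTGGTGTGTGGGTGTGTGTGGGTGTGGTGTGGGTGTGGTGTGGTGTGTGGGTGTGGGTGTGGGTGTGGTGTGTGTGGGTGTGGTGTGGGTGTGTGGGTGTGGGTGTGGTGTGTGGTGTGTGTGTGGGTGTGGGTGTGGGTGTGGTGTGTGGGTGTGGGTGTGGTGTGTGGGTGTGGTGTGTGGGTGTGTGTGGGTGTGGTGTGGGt
XII left arm, near PAU18 (chrXII:11128-11427): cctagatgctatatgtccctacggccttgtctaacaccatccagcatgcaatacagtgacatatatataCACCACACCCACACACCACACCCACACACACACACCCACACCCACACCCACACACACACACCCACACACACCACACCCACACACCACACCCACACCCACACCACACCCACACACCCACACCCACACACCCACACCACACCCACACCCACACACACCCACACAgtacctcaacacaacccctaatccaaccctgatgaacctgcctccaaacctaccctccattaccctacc
VIII right arm, near IMD2 (chrVIII:556759-557058): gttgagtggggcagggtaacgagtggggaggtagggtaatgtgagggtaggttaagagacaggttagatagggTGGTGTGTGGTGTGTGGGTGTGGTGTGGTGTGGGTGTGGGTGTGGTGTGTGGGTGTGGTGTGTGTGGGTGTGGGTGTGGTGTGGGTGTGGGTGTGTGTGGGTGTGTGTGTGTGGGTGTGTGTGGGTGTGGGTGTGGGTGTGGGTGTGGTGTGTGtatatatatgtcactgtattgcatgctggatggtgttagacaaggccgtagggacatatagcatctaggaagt
XII right arm, near YLR462W (chrXII:1064944-1065243): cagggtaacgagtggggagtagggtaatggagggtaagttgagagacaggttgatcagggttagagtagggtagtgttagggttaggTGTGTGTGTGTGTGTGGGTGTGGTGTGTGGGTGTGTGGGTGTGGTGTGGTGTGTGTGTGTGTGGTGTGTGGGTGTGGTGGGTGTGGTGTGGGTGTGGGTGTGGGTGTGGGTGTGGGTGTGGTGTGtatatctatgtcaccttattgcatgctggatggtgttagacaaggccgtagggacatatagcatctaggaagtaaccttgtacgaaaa
XV left end, before YOL166W-A (chrXV:1-300): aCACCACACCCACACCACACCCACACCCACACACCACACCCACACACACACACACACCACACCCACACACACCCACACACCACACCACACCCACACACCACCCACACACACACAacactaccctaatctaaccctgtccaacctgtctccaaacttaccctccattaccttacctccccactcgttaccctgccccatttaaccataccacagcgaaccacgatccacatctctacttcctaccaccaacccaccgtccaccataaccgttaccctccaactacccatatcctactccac

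Regions with these tracts held the highest signals near the chromosome ends, and 3 of them, near YCL075W, before YNR077C and near YHR219W, rose with 4NQO in all 3 alleles. The measure is the authors' rise, the ChIP minus input coverage at the strongest point of a region less the mean over its surroundings, and fold changes are given on the log2(rise + 1) scale, 4NQO minus YPD. Among the 8 regions with the highest mean rise, 6 held at least 100 tract bases: those near PAU18 (102.9), YCL075W (100.9), IMD2 (85.1), YFL064C (80.1), YNR077C (77.1) and YLR462W (67.8). The other two were a region near YRF1-4 (72.3) and one near YOL155W-A (61.0), and both are described further on. The median mean rise of all 176 regions was 26.9.

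At the left end of chromosome III (1-1187, 543.5 bp from the end to its centre, nearest gene YCL075W), 359 bases belonged to tracts. The rise with the YJM789 allele was 33.6, 42.8 and 40.5 in YPD and 177, 216 and 129 in 4NQO. With the S96 allele it was 32.0, 44.0 and 48.7 in YPD and 94.3, 87.1 and 159 in 4NQO. S96-I775E gave 56.0, 91.0 and 65.8 in YPD and 193, 178 and 129 in 4NQO. In each allele the lowest 4NQO library lay above the highest YPD library. The log2 differences were 2.11 ± 0.24 (SE) in YJM789 (adjusted p = 2.66e-07, limma), 1.39 ± 0.24 in S96 (adjusted p = 0.000644) and 1.23 ± 0.24 in S96-I775E (adjusted p = 0.00619).

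The right end of chromosome XIV (783435-784333) lies before the start of YNR077C, an uncharacterised reading frame, and held 306 tract bases. Its rise with YJM789 was 16.7, 22.6 and 19.6 in YPD and 181, 177 and 103 in 4NQO, a log2 difference of 2.87 ± 0.29 (adjusted p = 3.1e-08) and the largest among the 130 regions near the ends that were tested. With S96 it was 29.9, 38.5 and 32.6 against 74.8, 49.0 and 118, a difference of 1.15 ± 0.29 (adjusted p = 0.0232). With S96-I775E it was 65.5, 37.8 and 35.1 against 142, 139 and 106, a difference of 1.51 ± 0.29 (adjusted p = 0.00619). The YPD and 4NQO libraries did not overlap in any allele. The call in S96 passed in 14 of 18 fits that each left out 1 library, and those in YJM789 and S96-I775E in all 18.

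The right end of chromosome VIII (562187-562643, near YHR219W) was the region closest to an end, at 175 bp, and held 187 tract bases. Its rise averaged 28.9 ± 14 (SD, n = 3) in YPD and 78.1 ± 29 in 4NQO with YJM789, 22.0 ± 6.9 and 66.5 ± 23 with S96, and 39.8 ± 6.7 and 98.2 ± 18 with S96-I775E. The differences passed in YJM789 (1.45 ± 0.33, adjusted p = 0.00598), S96 (1.54 ± 0.33, adjusted p = 0.00672) and S96-I775E (1.28 ± 0.33, adjusted p = 0.0294). Of 18 fits that each left out 1 library, they passed in 16, 16 and 12 in that order. The call in S96-I775E was lost whichever library of the groups compared was left out. At the right end of chromosome XI (666053-666816, near GEX2, a glutathione exchanger; 208 tract bases), the difference passed in YJM789 (1.40 ± 0.31) and S96-I775E (1.62 ± 0.31). With S96 it was 32.4 and 33.8 in the libraries with a value in YPD and 76.8, 51.7 and 96.4 in 4NQO, and the test did not pass.

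Of the 5 tracts inside the chromosome, a rise with 4NQO passed the test near PAU18, IMD2 and YFL064C in YJM789, near PAU18 in S96, and at none in S96-I775E. Near YLR462W (0.17 in YJM789, -0.49 in S96 and 0.72 in S96-I775E) and YRF1-1 (-0.21, -0.24 and 0.24), the log2 difference passed in no allele. Near PAU18, a seripauperin gene, a tract of 162 bases stood at 11197-11358 in a region of chromosome XII centred 11461 bp from the left end. The rise was 95.7, 70.9 and 91.7 in YPD and 160, 168 and 119 in 4NQO with YJM789 (log2 difference 0.78 ± 0.17, adjusted p = 0.00452). It was 54.2, 56.0 and 67.0 against 132, 109 and 149 with S96 (1.12 ± 0.17, adjusted p = 0.000234). S96-I775E gave 67.2, 76.9 and 87.8 against 128, 116 and 102, groups that did not overlap but did not pass the threshold. Near IMD2, which encodes an IMP dehydrogenase of guanine nucleotide synthesis, the rise with YJM789 went from 47.7, 33.5 and 36.1 in YPD to 162, 158 and 69.6 in 4NQO (1.62 ± 0.25, adjusted p = 9.06e-05). With S96 it was 64.7, 51.9 and 55.5 in YPD and 121, 77.1 and 130 in 4NQO. These groups did not overlap, but the difference did not pass the threshold (0.89 ± 0.25, adjusted p = 0.0517, limma). With S96-I775E it was 80.1, 105 and 82.8 in YPD and 97.7, 85.1 and 74.5 in 4NQO, so that these libraries overlapped.

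**Figure D1:**
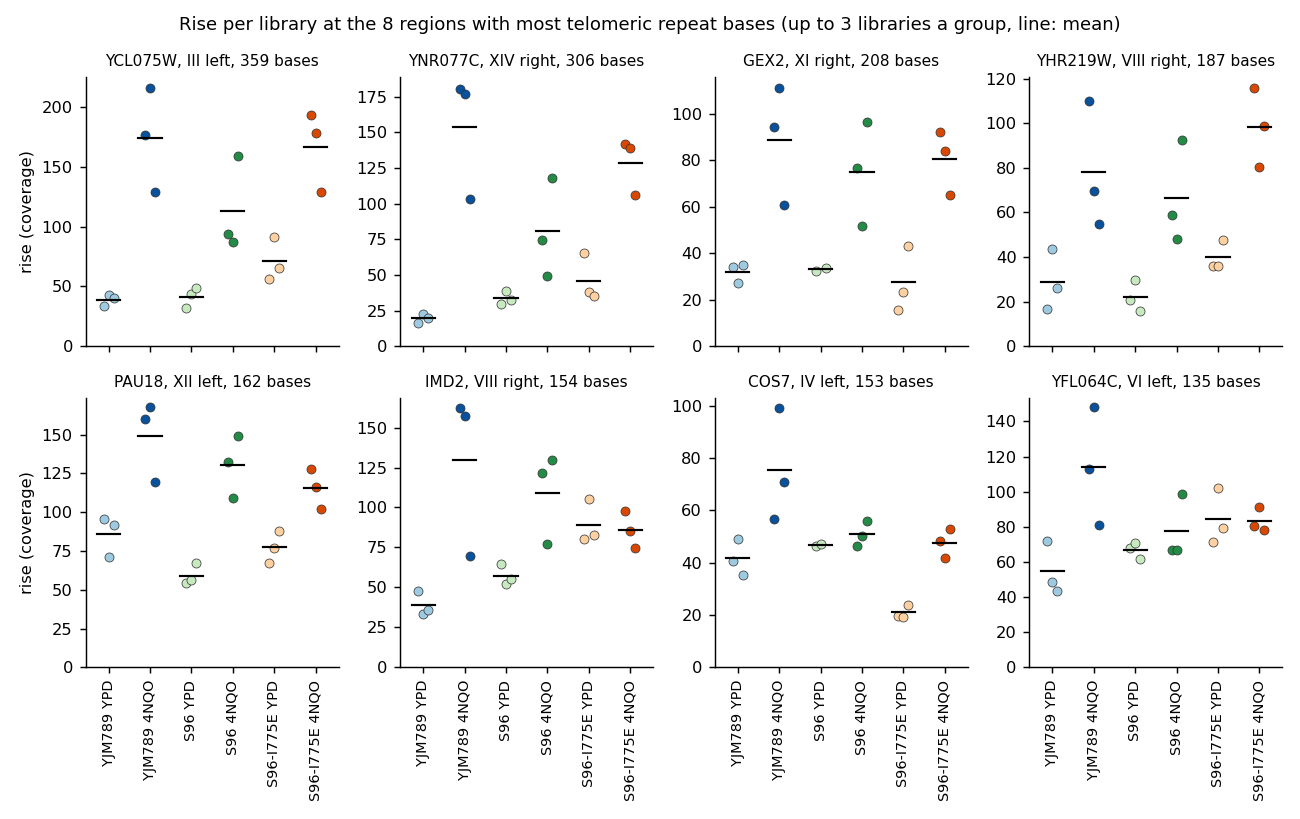
Rise over background (vertical axis, coverage units, separate scale per panel, starting at 0) in each of the 18 ChIP libraries at the 8 regions with most telomeric repeat bases; points are libraries, bars are group means, and panels give the nearest gene, the chromosome arm and the tract bases. S96 in YPD has 2 values each at GEX2 and COS7. At the III left end the 3 YJM789 libraries in 4NQO lay between 129 and 216 and those in YPD between 33.6 and 42.8.

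All 11 regions with at least 100 tract bases were tested. With 4NQO, 7 of them rose in YJM789, 4 in S96 and 5 in S96-I775E, and none fell. Of all 1350 regions tested, 6.15%, 1.41% and 1.93% were called higher in the same order. The median log2 difference of these 11 regions was 1.04, 0.89 and 0.72, beside 0.245, -0.133 and 0.092 over all 1350 regions tested. The 33 tested telomeric regions with fewer than 50 tract bases had medians of 0.370, -0.224 and 0.204. Of these, 3, 0 and 0 were called higher. Not every tract region rose. The left end of chromosome XV (1-551, before YOL166W-A; 125 tract bases), printed above, had a rise of 46.5, 27.9 and 40.3 in YPD and 30.6, 29.9 and 19.0 in 4NQO with YJM789. Its log2 difference was -0.51 in YJM789, 0.31 in S96 and -0.59 in S96-I775E, and it passed in no allele. The XI left end near PAU16 (78 tract bases), at 0.48 in YJM789, -0.63 in S96 and 0.31 in S96-I775E, did not pass in any allele, and the XIII right end near PAU19 (72) had too many empty values to be tested. Across the 13 tested regions with at least 50 tract bases, the change with 4NQO and the number of tract bases had a Spearman correlation of 0.748 in YJM789, 0.803 in S96 and 0.652 in S96-I775E. With empty values set to 0, none of the 5 calls in S96-I775E passed. That fit also took in the regions left untested here. The regions near YCL075W, before YNR077C and near YHR219W had no empty value, so their own values were unchanged in it. The correlations are descriptions over regions that share libraries and inputs. Part of the sequence of these regions also recurs in the genome. The share of recurring 50-base words ran from 0.398% at the XV left end to 66.9% near COS7. It was 51.4% near PAU18 and 39.9% near IMD2. Whether reads were shared between these regions was not tested. The number of calls depended on single libraries. In S96, 2 tract regions were called without YPD replicate 3 or 4NQO replicate 3, and in S96-I775E 1 was called without YPD replicate 1 and 3 without YPD replicate 2, 4NQO replicate 1 or 4NQO replicate 3.

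**Figure D2:**
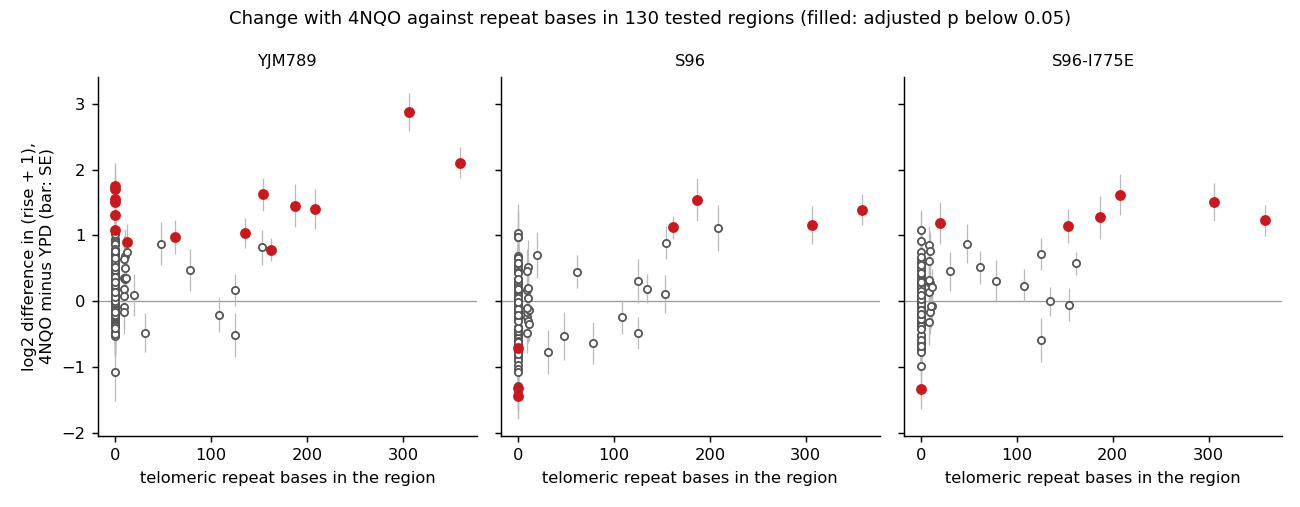
Log2 difference in rise + 1 between 4NQO and YPD (vertical axis, bars are standard errors) against telomeric repeat bases in the region (horizontal axis) for the 130 tested regions, one panel per allele; filled points passed an adjusted p of 0.05. The right-hand points, 306 and 359 bases, lay at 2.87 and 2.11 in YJM789, at 1.15 and 1.39 in S96, and at 1.51 and 1.23 in S96-I775E.

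The ChIP minus input coverage at the strongest point, without subtraction of the surroundings, was called at more regions than the rise in YJM789 and S96, and at about as many in S96-I775E. It differed between 4NQO and YPD at 104 of the 130 regions in YJM789 (53.7% of all 1350 called in either direction), at 70 in S96 (33.7%) and at 8 in S96-I775E (2.74%), beside 15, 7 and 7 with the rise. Between alleles it differed at 12 regions for YJM789 against S96 in YPD (11.3%) and 65 in 4NQO (30.2%), at 79 for S96-I775E against S96 in YPD (37.7%) and 8 in 4NQO (5.85%), and at 20 for S96-I775E against YJM789 in YPD (8.37%) and 27 in 4NQO (15.3%). The change with 4NQO differed at 18 regions between YJM789 and S96 (8%), at 14 between S96-I775E and S96 (8.44%) and at 61 between S96-I775E and YJM789 (27.5%). At the III left end near YCL075W this coverage was 5.87 ± 5.2 in YPD and 179 ± 45 in 4NQO with YJM789, 4.27 ± 3.7 and 90.0 ± 40 with S96, and 68.1 ± 19 and 149 ± 29 with S96-I775E.

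The strongest point of the ChIP minus input coverage lay at the tract in most, but not all, of the long tract regions. At the 11 regions, 85 of 99 strongest points in 4NQO libraries fell inside a tract of at least 50 bases or within 50 bp of it, and so did 67 of 97 in YPD libraries. Tract and margin covered between 13.2% and 51.9% of these regions, with a median of 27.6%. All 9 strongest points of the 4NQO libraries fell there at the regions near YCL075W, YNR077C, GEX2, PAU18, IMD2, YFL064C and YLR462W. In YPD this was so of 4 of 9 near YCL075W, 6 of 9 before YNR077C and 3 of 8 near GEX2, and of 8 of 9 near PAU18 and IMD2. At the XV left end only 3 of 9 strongest points in 4NQO lay at the tract, and near YRF1-1 4 of 9. At the regions with shorter tracts, of at least 50 bases, it was 4 of 9 before YCR108C and 2 of 9 near PAU16 and near PAU19. It was 9 of 9 near YLL066W-B and 2 of 2 near YLL067C. The deposited windows reach past the chromosome ends, and 13 strongest points, at 7 of the 176 regions, were listed beyond the last base.

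**Figure D3:**
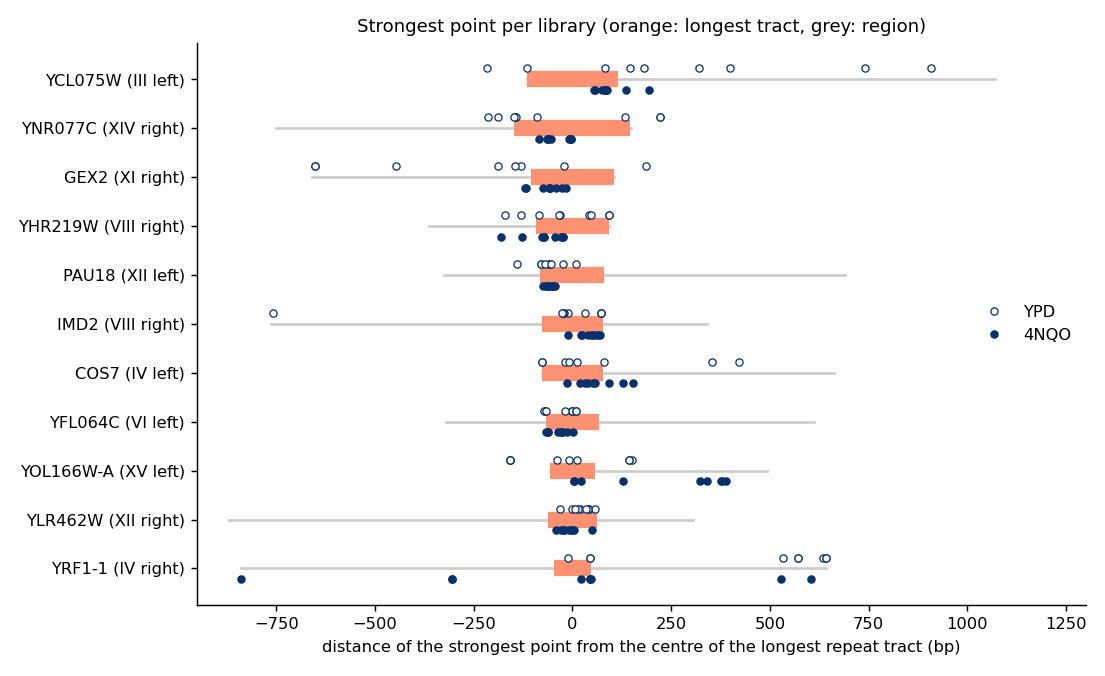
Distance of each library's strongest point from the centre of the longest tract (horizontal axis, bp) at the 11 regions with at least 100 tract bases (rows); open circles are YPD libraries, filled circles 4NQO libraries, orange bars the longest tract and grey lines the region. Of the filled circles, 85 of 99 lay in a tract of at least 50 bases or within 50 bp of one.

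The balance of ChIP and input at the tract regions also differed between the groups. Over the 33 pairs of tract region and library in a group, the MACS2 test of ChIP over input had a peak in 0 pairs in YJM789 YPD, 23 in YJM789 4NQO, 0 in S96 YPD, 3 in S96 4NQO, 3 in S96-I775E YPD and 12 in S96-I775E 4NQO. The reverse test, of input over ChIP, had a peak in 19, 0, 29, 7, 0 and 0 pairs in the same order. The surroundings of the tracts had a median ChIP minus input coverage of -27.1 in YJM789 YPD, 1.80 in YJM789 4NQO, -36.6 in S96 YPD, -17.1 in S96 4NQO, -4.26 in S96-I775E YPD and -1.64 in S96-I775E 4NQO. Their part in the rise with 4NQO was not tested.

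Outside the long tracts, 8 regions changed with 4NQO in YJM789, 3 in S96 and 2 in S96-I775E. Of the 130 regions near the ends that had enough values to be tested, 15 rose in YJM789 (11.5% called, against 6.15% of all 1350 regions called higher) and none fell (0.667%). With S96, 4 rose (1.41% of all regions) and 3 fell (1.19%), and with S96-I775E, 6 rose (1.93%) and 1 fell (0.667%). All 4 that rose in S96 and 5 of the 6 in S96-I775E were tract regions with at least 100 bases. The sixth was a region in SMX3, which encodes a core protein of spliceosomal snRNPs, with 26.6, 30.4 and 22.3 in YPD and 65.1, 47.3 and 73.8 in 4NQO. The fall in S96-I775E was before YEL068C, from 38.0 ± 10 to 14.2 ± 1.8 (-1.33 ± 0.32, adjusted p = 0.0202). With library medians set equal, 6 rose and 1 fell in S96. The falls in S96 were in YRF1-5 (45.2 ± 1.5 to 16.1 ± 1.4), near YHR214C-B (41.7 ± 11 to 15.9 ± 2.0) and near YRF1-4 (97.4 ± 11 to 58.8 ± 6.4). With equal medians the regions near YHR214C-B and near YRF1-4 did not pass, and the ChIP minus input coverage at the strongest point went the other way in YRF1-5 (17.3 higher in 4NQO, adjusted p = 0.145) and near YHR214C-B (16.0 higher, adjusted p = 0.159). Without YPD replicate 1 the 15 in YJM789 became 9, and without 4NQO replicate 2 they became 7. The 7 calls in S96 became 4 without YPD replicate 1, 2 without YPD replicate 3, and 3 without 4NQO replicate 1 or 3, and the 7 in S96-I775E became 1 without YPD replicate 1, 3 without YPD replicate 2 or 4NQO replicate 1, and 4 without 4NQO replicate 2.

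Regions without a long tract rose with the YJM789 allele at HPF1, APA1, RPL29, COS2, YAL064W-B, YPR204W, YER188C-A and YLL066W-B, the last with 62 tract bases. Of 18 fits that each left out 1 library, these calls passed in 18 at HPF1 and APA1 and in 17 at YAL064W-B. They passed in 15 at RPL29, in 14 at COS2, YPR204W and YLL066W-B, and in 7 at YER188C-A. With library medians set equal, YPR204W, YER188C-A and YLL066W-B did not pass. In HPF1, which encodes a cell wall mannoprotein, the region on chromosome XV (28429-29364) was centred 28896.5 bp from the left end, and the rise with YJM789 was 25.5, 26.5 and 20.4 in YPD and 81.7, 121 and 58.9 in 4NQO. With S96 it was 26.1, 51.6 and 62.4 against 15.0, 29.0 and 21.0, and with S96-I775E 25.5, 29.7 and 37.5 against 37.1, 30.8 and 20.3. The region near YOL155W-A (27162-28290), with reverse peaks of input over ChIP in 13 libraries, ends shortly before this one. At HPF1 the 4NQO libraries of YJM789 lay above all libraries of the other alleles in 4NQO. The change was 1.76 ± 0.34 in YJM789 (adjusted p = 0.00191) and exceeded that in S96 by 2.79 ± 0.49 (adjusted p = 0.00177).

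Before APA1, which encodes a diadenosine tetraphosphate phosphorylase (chromosome III, 38975-39517), the rise with YJM789 was 16.0, 19.0 and 17.2 in YPD and 71.6, 75.2 and 37.8 in 4NQO. The other 12 libraries lay between 10.7 and 31.9. The change of 1.70 ± 0.37 (adjusted p = 0.00447) exceeded that in S96 by 2.24 ± 0.53 (adjusted p = 0.0192). Neither difference passed with the ChIP minus input coverage at the strongest point in place of the rise. No library had a MACS2 peak of either kind over this region, and the 50-base words of this region did not recur elsewhere. Before RPL29, a ribosomal protein gene on chromosome VI, the rise with YJM789 was 15.6, 30.0 and 27.5 against 83.1, 86.0 and 45.1 (1.51 ± 0.39, adjusted p = 0.0172), and the S96-I775E libraries in YPD reached 79.8 in 1 of 3. With the coverage at the strongest point the change before RPL29 in YJM789 did not pass either. Near YAL064W-B (14.6, 13.7 and 21.8 against 49.3, 82.6 and 30.8) and at the II right end near COS2 (24.1, 21.3 and 30.3 against 74.1, 66.5 and 52.4) the groups also did not overlap. COS2 belongs to a family of subtelomeric membrane proteins, and the whole of this region's sequence recurs elsewhere in the genome.

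The change with 4NQO was larger in YJM789 than in S96 at 7 regions (3.56% of all called higher) and smaller at 0 (0.37%). Besides HPF1 and APA1 these were YRF1-4, YRF1-5, YNR077C, YPR204W and a region in SSB1, a ribosome-associated chaperone gene. It was larger in S96-I775E than in S96 at 2 regions (1.93%), near YRF1-4 and in KRE1, and smaller at 0 (0.667%). It was smaller in S96-I775E than in YJM789 at 3 regions (1.63%), IMD2, RPL29 and HPF1, and larger at 0 (0.37%). With library medians set equal, the 7 became 1 (HPF1), the 2 became 0 and the 3 stayed at 3. The 7 became 3 without YJM789 YPD replicate 1, 2, 3 and 20 without YJM789 4NQO replicates 1, 2 and 3, 4 and 3 without S96 YPD replicates 2 and 3, and 4 without S96 4NQO replicate 1. The 3 became 0, 1 and 8 without YJM789 4NQO replicates 1, 2 and 3, 0 without S96-I775E YPD replicate 2 and 1 without S96-I775E 4NQO replicate 3, and the 2 became 1 without any of 9 libraries.

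**Figure D4:**
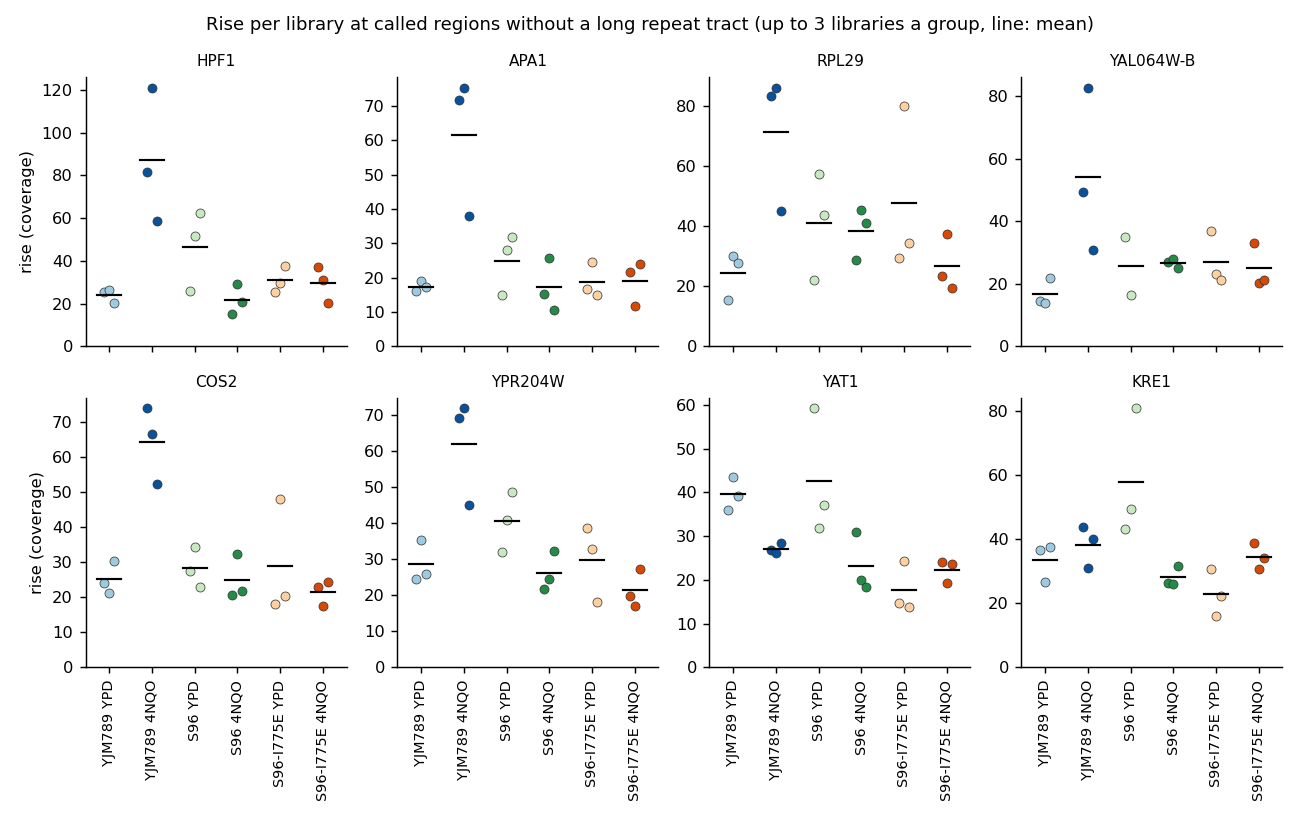
Rise over background (vertical axis, coverage units, separate scale per panel, starting at 0) in each ChIP library at 8 called regions with no long repeat tract; points are libraries and bars are group means. S96 in YPD has 2 values at YAL064W-B, where the third library has none. At HPF1 the 3 YJM789 libraries in 4NQO lay between 58.9 and 121, and at APA1 between 37.8 and 75.2.

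Between alleles in YPD, no region near the ends differed between YJM789 and S96 (0 of 130 by limma in either direction, where 0.519% of all regions were called higher and 1.56% lower; 26 had an unadjusted p below 0.05). S96-I775E was lower than S96 at 8 regions (4.96% of all regions called lower) and higher at 0 (1.85%). The named ones were in KRE1, a gene of cell wall glucan (23.0 ± 7.3 against 57.8 ± 20), in YAT1, a carnitine acetyltransferase gene (17.6 ± 5.9 against 42.7 ± 15), in YRF1-8, near YIR043C at the IX right end, and at the IV left end near COS7 (21.0 ± 2.5 against 46.9 ± 0.58 over 2 values). The region near COS7 is a long tract region, with 153 tract bases. Without subtraction of the surroundings the direction turned at 5 of the 8: the coverage difference was higher in S96-I775E by 33.8 in YAT1 (adjusted p = 0.00195) and by 26.1 before OPT1 and PEX2 (adjusted p = 0.0131), and by 9.73 in KRE1, 12.7 near COS7 and 16.8 in YRF1-8, where it did not pass. Empty values were most frequent in that S96 group, where 22.3% ± 2.9 of the 176 regions had none, and the count of 8 became 4, 3 and 2 without S96 YPD replicates 1, 2 and 3 and 2, 5 and 3 without S96-I775E YPD replicates 1, 2 and 3. S96-I775E was higher than YJM789 at 2 tract regions (1.48% of all), near IMD2 (89.3 ± 14 against 39.1 ± 7.6, adjusted p = 0.00868) and before YNR077C (46.1 ± 17 against 19.6 ± 3.0, adjusted p = 0.0334), and lower in YAT1 (0.667% of all). With library medians set equal, S96-I775E was higher than S96 at 7 regions and lower at 1. It was then higher than YJM789 at 4 and lower at 0. So the split of calls against S96 in YPD depended on the scaling. None of the 8 turned direction with equal medians, but of them only KRE1 still passed. The 3 calls against YJM789 became 0 without YJM789 YPD replicate 2, 1 without YJM789 YPD replicate 1 or 3 or S96-I775E YPD replicate 1 or 2, and 5 without YJM789 or S96 4NQO replicate 3.

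In 4NQO, YJM789 was higher than S96 at 6 regions (3.04% of all called higher) and lower at 0 (0.37%). With library medians set equal, 3 of the 6 passed, and COS2, YRF1-4 and YPR204W did not. The regions in HPF1 and near YOL155W-A, both among the 6, are neighbours on chromosome XV. The 6 were HPF1 (87.1 ± 31 against 21.7 ± 7.0), APA1 (61.5 ± 21 against 17.1 ± 7.6), YRF1-4 (53.1 ± 31 against 17.4 ± 3.7, with overlapping libraries), COS2 (74.1, 66.5 and 52.4 against 20.7, 32.4 and 21.9), YPR204W (62.1 ± 15 against 26.2 ± 5.5) and the region near YOL155W-A (80.6 ± 19 against 37.1 ± 10). S96-I775E was lower than YJM789 at 5 regions (3.19% of all called lower) and higher at 0 (0.667%): APA1, COS2, HPF1, YPR204W, a reading frame of a Y' element, and RPL29. Of the long tract regions, none passed the test between YJM789 and either other allele in 4NQO. S96-I775E was higher than S96 at the internal tract near YLR462W (110, 92.9 and 98.4 against 37.4, 39.5 and 52.2; 1.22 ± 0.24, adjusted p = 0.00305) and near YOL155W-A (1.26% of all), and lower before OPT1 and PEX2 (0.593% of all), an oligopeptide transporter and a peroxisomal protein gene.

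With library medians set equal, S96-I775E was lower than YJM789 at 4 regions and higher at 1. These counts depended on single libraries. The 6 regions higher in YJM789 than in S96 were 2, 3 and 16 without YJM789 4NQO replicates 1, 2 and 3, and 3 without S96 4NQO replicate 1 or 2. The 5 lower in S96-I775E than in YJM789 were 0 without YJM789 4NQO replicate 2, 13 without replicate 3, and 1 without S96-I775E 4NQO replicate 2. The 3 between S96-I775E and S96 were 1 without S96 4NQO replicate 2 or 3 or S96-I775E 4NQO replicate 1 or 3. HPF1 and APA1 between YJM789 and S96, and YLR462W between S96-I775E and S96, passed whichever library was left out. Between S96-I775E and S96, the region near YOL155W-A passed in 7 of those 18 fits and that before OPT1 and PEX2 in 14. APA1 did not pass with the coverage at the strongest point in place of the rise, nor with the other deposited parameter set, m2. The same held near YOL155W-A and before OPT1 and PEX2 between S96-I775E and S96.

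Distance itself gave no steady gradient. In 16 of 18 libraries the highest median rise was found between 5 and 10 kb from the end, where 2 of the 11 long tract regions lie. In YJM789 4NQO the median rise was 33.0 ± 4.4 (SD over 3 libraries) within 5 kb, 42.2 ± 13 between 5 and 10 kb, 32.6 ± 1.8 between 10 and 20 kb and 28.9 ± 4.5 between 40 and 50 kb. In S96-I775E YPD it was 21.4 ± 1.9, 32.0 ± 3.0, 22.4 ± 1.3 and 24.2 ± 2.0 over the same distances. In the reverse table, of input minus ChIP, 5 of the 6 groups also had their highest mean there and S96 YPD had it between 30 and 40 kb (36.9 ± 4.0, beside 36.6 ± 2.3). Its mean between 5 and 10 kb was 41.0 ± 11 in YJM789 4NQO and 30.5 ± 2.5 in S96-I775E YPD, beside 31.4 ± 5.2 and 24.1 ± 1.8 within 5 kb.

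The median within 10 kb of the end exceeded that between 10 and 50 kb in 17 of 18 libraries, by 1.86 ± 1.7 in YJM789 YPD, 5.26 ± 2.8 in YJM789 4NQO, 7.63 ± 2.0 in S96 YPD, 4.56 ± 1.7 in S96 4NQO, 0.0889 ± 1.7 in S96-I775E YPD and 4.28 ± 1.0 in S96-I775E 4NQO. Without the 16 regions that hold at least 50 tract bases, these differences were 0.53 ± 1.3, 3.87 ± 1.5, 7.52 ± 1.8, 0.605 ± 0.11, -1.24 ± 0.73 and 0.703 ± 1.4. So the excess near the ends fell below 1 coverage unit in S96 4NQO and S96-I775E 4NQO once tract regions were set aside, and stayed above 3 in YJM789 4NQO and S96 YPD. The Spearman correlation of rise with distance over 132 to 171 regions lay between -0.168 and 0.0372 across libraries, and between -0.0669 and 0.0955 without the tract regions. The input minus ChIP table had the higher median within 10 kb in 17 of 18 libraries too.

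**Figure D5:**
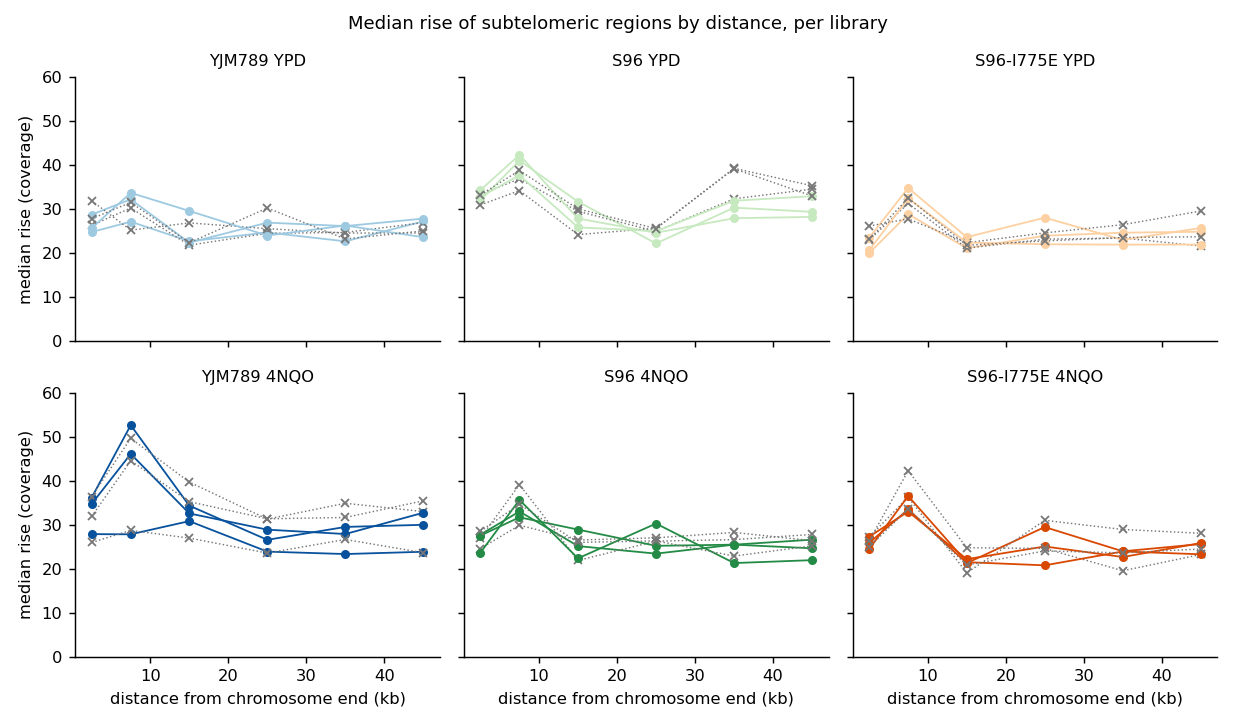
Median rise (vertical axis, coverage units) of the 176 regions in 6 classes of distance from the chromosome end (horizontal axis, kb, class centres), one line per library and one panel per group; coloured circles are ChIP minus input and grey crosses input minus ChIP. Between 5 and 10 kb the YJM789 4NQO libraries had medians of 27.8 to 52.7, and 16 of 18 libraries had their highest ChIP value there.

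As a whole the regions near the ends had medians close to those farther in. Their median rise was 31.1 ± 4.3 in YJM789 4NQO and 30.3 ± 1.3 in S96 YPD, beside 29.4 ± 2.3 and 29.4 ± 1.4 for the 1298 other regions, and the difference was above 0 in 10 of 18 libraries. The largest group mean of that difference was 1.68 ± 2.2, within its own spread.

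Peak calls near the ends ran in both directions. A MACS2 ChIP peak lay over 69, 55 and 4 of the 176 regions in YJM789 4NQO replicates 1, 2 and 3, and over 0 to 10 in the other 15 libraries. At least 2 of 3 libraries had one at 39 regions in YJM789 4NQO (22.2%), against 16.6% of the 1474 nuclear regions without a tRNA gene, and 22 of the 39 were telomeric. In S96-I775E 4NQO there were 6 such regions (background 1.42%), in S96 4NQO 3 (2.78%), in S96-I775E YPD 1 (1.56%), in S96 YPD 0 (2.24%) and in YJM789 YPD 0 (0.271%). Peaks of the reverse test, with input above ChIP, lay over 76 regions in S96 YPD (43.2%, background 24.6%) and 34 in YJM789 YPD (19.3%, background 7.94%), of which 42 and 24 were telomeric. The counts in the other groups were 14 in S96 4NQO (2.85%), 6 in S96-I775E YPD (1.29%), 5 in S96-I775E 4NQO (1.36%) and 4 in YJM789 4NQO (1.49%). No region had a ChIP peak in 9 or more of 18 libraries. The most were 8 libraries, in RPL8A, a ribosomal protein gene, and near YCL075W, followed by 7 near PAU18 and near IMD2. In the authors' deposited CisGenome peaks, which have 1 list per group, 29 of the regions were covered in YJM789 4NQO (8.14% of the 1474), 19 in S96-I775E 4NQO (6.51%), 11 in S96 4NQO (5.36%), 7 in S96-I775E YPD (2.58%), 2 in S96 YPD (2.37%) and 0 in YJM789 YPD (0.339%). As shares of the 176 these are 16.5%, 10.8%, 6.25%, 3.98%, 1.14% and 0%.

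Some high values stood in regions where input exceeded ChIP. The region near YRF1-4 (chromosome XII, 1071194-1071974) had a reverse peak in 18 of 18 libraries and a ChIP peak in none. Its rise was 97.4 ± 11 in S96 YPD, while ChIP minus input at its strongest point was 13.7 ± 5.5 and its surroundings were at -83.7 ± 7.3. The rise there was a climb from surroundings with more input than ChIP. The region near YOL155W-A had reverse peaks in 13 libraries and likewise no ChIP peak.

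Among the gene families of the subtelomeres, 28 regions were assigned to YRF1 genes and 22 of them tested. With 9 comparisons of 2 groups, 4 of the 28 were called in at least 1, with 1 call higher and 4 lower. Of all 176 regions, 30 of the 130 tested were called in at least 1 comparison, against 18.5% of the 1350 regions tested. Of 4 PAU regions 2 were tested and 1 was called (PAU18). Of 4 COS regions 2 were tested, and these 2 (COS2 and COS7) were called, as was the IMD2 region. None of the 5 FLO regions, all tested, was called, and their mean rise lay between 13.0 in FLO11 and 26.9 in FLO9, both flocculin genes. Of 4 regions in THI genes of thiamine precursor synthesis (18.9 to 28.4), 3 were tested and none was called. Of 3 at PHO genes, 2 were tested and none was called. There PHO84, the phosphate transporter gene, had 53.7, PHO4 had 44.6 and PHO11 had 22.0. No region was assigned to AAD, DAN, TIR, SUC, SEO, FDH or HSP genes. HXT (HXT12) and MAL (MAL32) had 1 each, not tested.

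Of 24 drug resistance genes listed, 15 lie within 50 kb of an end, and regions were assigned to 2 of them. A region near HXT12, a hexose transporter gene, had a mean rise of 47.8 but was empty in 7 libraries and not tested. One before ARN1, a siderophore transporter gene, had 23.1 and was not called. The Yrr1 element, A or T, CCG, C or T, G, G or T, then a pair of A or T, searched on both strands of the 300 bases around the strongest points, was found in 3 of 176 windows (1.70%), near HXT12 and in PGA3 and MND2, against 3.31% of the 1298 others. The core ACCCTAA, a motif of the subtelomeric factor Tbf1, was found in 13 windows (7.39%) against 1.62%. The core CGGGTAA, a motif of Reb1, was found in 4 (2.27%) against 2.08%.

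At the silent mating cassette HMR, a region before HMRA2 (chromosome III, 293426-294567) had a rise of 32.3, 44.8 and 33.3 in YJM789 YPD and 45.5, 38.7 and 34.8 in YJM789 4NQO, and it passed in no comparison. The 46 regions left untested had too many empty values, and 16 of them lay within 10 kb of an end, among 63 there. The same held for the XV right end near YRF1-8, the second closest to an end at 211 bp, which was empty in 17 of 18 libraries, had 36.3 in the remaining library, of S96-I775E in YPD, and had a reverse peak in 17.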

How the data were processed

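Yrr1-Myc ChIP-seq was analysed from the tables the authors deposited. Per the submitters' processing notes, the tools were MACS2 2.1.0, CASAVA 1.7 and Bowtie2 2.2.3, and the build was sacCer3, whose chromosome lengths equal those of the reference used here. Per the file headers, the deposited region tables hold signal values for each of 1711 regions and 18 ChIP libraries: ChIP minus input coverage at the strongest point, the mean of its surroundings, and their difference, the rise, which it equalled with a largest departure of 1.0e-12. Empty values (7.32%) were kept empty. Deposited MACS2 lists, per library against its group's input, give pileup signal, fold enrichment as a ratio and −log10 p-values and q-values (lowest −log10 q 1.3), in 2 parameter sets marked mn, used here, and m2. The authors' CisGenome lists, 1 per group and setting, give log2 fold changes, a score, −log10 p-values and a false discovery rate, per the file headers. Another 15 value columns of the tables were not used. The sources used here do not give read depth, so no counting interval could be given.

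Where each group had 2 or more values (1350 regions, 130 of them near the ends), log2(rise + 1) was tested in R 4.3.3 with limma 3.58.1, using moderated variances with a mean trend, all 18 libraries in one fit, with Benjamini-Hochberg adjustment over all tested regions and a threshold of 0.05; the script was tested on simulated data. Peaks and regions were matched at 1 bp overlap. Summaries used Python 3.11.15, pandas 2.3.3 and scipy 1.17.1. Same-numbered libraries of different groups did not deviate together (r between -0.0655 and 0.0703 over 27 pairs), so no block entered the main fit. Regions are named by the gene whose start codon lies at most 500 bp downstream of the centre, else the gene they lie in, else the nearest gene. Named were up to 5 called regions per comparison and direction, the 8 with the highest mean rise, those with a ChIP peak in at least 9 libraries, the 3 nearest an end, and those of listed drug resistance genes and gene families; further ones were named after their values were seen, among them HMRA2, PAU16, PAU19, the calls named beside a count and the XV left end. The members and lists were chosen with earlier results of these data known.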

Additional observations from a re-analysis of the deposited data

Results flagged for a closer look

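At 11 regions the change of log2(rise + 1) with 4NQO differed between alleles by a test of the difference itself (limma, Benjamini-Hochberg over 1350 regions). Between YJM789 and S96, the change was larger in YJM789 by 2.79 ± 0.49 (SE) in HPF1 (adjusted p = 0.00177), by 2.24 ± 0.53 before APA1 (adjusted p = 0.0192), by 2.19 ± 0.54 in YRF1-4 (adjusted p = 0.0228) and by 1.81 ± 0.51 in YRF1-5 (adjusted p = 0.0399). It was also larger by 1.72 ± 0.41 before YNR077C (adjusted p = 0.0193), by 1.69 ± 0.45 in YPR204W (adjusted p = 0.0343) and by 1.44 ± 0.40 in SSB1 (adjusted p = 0.0399).

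Between S96-I775E and S96, the change was larger in S96-I775E by 1.57 ± 0.43 in KRE1 (adjusted p = 0.0444) and by 1.15 ± 0.26 near YRF1-4 (adjusted p = 0.0188). Between S96-I775E and YJM789, the S96-I775E minus YJM789 difference was -2.24 ± 0.55 before RPL29 (adjusted p = 0.0335), -1.85 ± 0.49 in HPF1 (adjusted p = 0.0398) and -1.68 ± 0.36 near IMD2 (adjusted p = 0.0107). The YRF1 regions recur almost whole elsewhere in the genome. The region in YRF1-4 rose in 2 of 3 YJM789 libraries (61.7, 78.7 and 18.8 in 4NQO against 20.1, 25.4 and 26.8 in YPD). The difference at HPF1 between YJM789 and S96 passed in all 18 fits that left out 1 library, with an adjusted p between 2.5e-05 and 0.0096 over all its alternatives. Of the other differences between YJM789 and S96, those at APA1, YNR077C, YRF1-4, YPR204W, SSB1 and YRF1-5 passed in 17, 16, 15, 10, 8 and 7 of these 18 fits, and with library medians set equal none of these 6 passed. Between S96-I775E and S96, the region near YRF1-4 passed in 18 and KRE1 in 7, and with equal medians neither did. Between S96-I775E and YJM789, IMD2, RPL29 and HPF1 passed in 16, 12 and 9, and all 3 passed with equal medians.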

How the results depend on the processing

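Counts of called regions depended on the measure, on empty values and on single libraries. Regions chosen by name kept their direction in 1808 of 1818 alternatives and also passed in 1445. The direction reversed with empty values as 0 for COS7 (0.74) and YIR043C (0.67), S96-I775E against S96 in YPD. With coverage difference at the strongest point in place of the rise, chosen after seeing the data, it reversed in the same comparison for YAT1 (33.8), COS7 (12.7), OPT1/PEX2 (26.1), KRE1 (9.73) and YRF1-8 (16.8), for 4NQO in S96 at YRF1-5 (17.3) and YHR214C-B (16.0), and for S96-I775E minus S96 at KRE1 (-6.47).

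That measure called 104 of 130 regions for 4NQO in YJM789 (53.7% of all regions), 70 in S96 (33.7%), 12, 65, 79, 8, 20 and 27 in the allele comparisons (YJM789 against S96, S96-I775E against S96 and S96-I775E against YJM789, YPD then 4NQO), and 18, 14 and 61 for the differences of response (YJM789 minus S96, S96-I775E minus S96, S96-I775E minus YJM789). It called 11 tract regions in YJM789 and 7 in S96. With empty values as 0, the calls were 22 for 4NQO in S96, 0 in S96-I775E (0 tract regions), 11 and 20 for YJM789 and S96-I775E against S96 in YPD, 2 for S96-I775E against YJM789 in 4NQO, and 14, 8 and 1 for the response. The m2 set gave 10, 1 and 2 in 4NQO and 4 and 5 for S96-I775E in YPD, 4 for 4NQO in S96-I775E, and 14 and 0 for the response against S96. Equal medians gave 1 and 3 for YJM789 against S96, and 1 and 0 for the response against S96. Without the filter YJM789 against S96 in YPD had 2. Fitting only the 2 groups gave 2 and 1 against S96 in 4NQO and 1 for S96-I775E against YJM789 in YPD. The linear scale gave 0 there, 1 and 5 for the response of S96-I775E against S96 and YJM789, and 2 tract regions in S96. With a value in every library, 3 tract regions passed in S96-I775E. Regions at most 25 kb from an end had 3, 1 and 2 calls in 4NQO and 4 for S96-I775E against S96 in YPD.

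Leaving out 1 library gave 7 to 21 calls for 4NQO in YJM789, 2 to 9 in S96 and 1 to 8 in S96-I775E. In YPD it gave 0 to 1, 2 to 10 and 0 to 5 for the allele pairs in the order above, and in 4NQO 2 to 16, 1 to 3 and 0 to 13. For the response it gave 2 to 20, 1 to 3 and 0 to 8. Tract regions numbered 5 to 7, 2 to 6 and 1 to 6. A replicate block gave 13, 7 and 6 calls for 4NQO, 6, 2 and 3 for the response, and 7, 4 and 5 tract regions. The numbers do not pair the libraries (r at most 0.0703), and other splits gave r between -0.0848 and 0.0788.

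The excess within 10 kb was 3.64, 9.74, 5.18 and 2.50 in YJM789 YPD, YJM789 4NQO, S96 YPD and S96-I775E YPD with the m2 set. With empty values as 0 it was 5.08 in S96 YPD, 2.57 in S96 4NQO and 2.91 in S96-I775E 4NQO, and with tRNA regions kept 2.61 in S96 4NQO. With regions at most 25 kb from an end it was 3.97, 11.3, 1.89 and 5.91 in YJM789 YPD, S96 YPD, S96-I775E YPD and S96-I775E 4NQO. Split at 5 kb it was 4.17, 1.09, -2.68 and 1.30 in S96 YPD, S96 4NQO, S96-I775E YPD and S96-I775E 4NQO, and split at 25 kb it was -0.39 in YJM789 YPD and 1.14, 1.88 and 0.17 in S96 YPD, S96 4NQO and S96-I775E 4NQO. Regions near the ends less the others came to -0.91 in S96 YPD with empty values as 0 and -0.86 in S96-I775E YPD within 25 kb.

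At a MACS2 fold of at least 2, 12 regions had ChIP peaks in YJM789 4NQO, 0 in S96 4NQO and 0 in S96-I775E YPD, and input peaks numbered 11 in YJM789 YPD, 29 in S96 YPD, 1 in S96 4NQO and 2 in S96-I775E YPD. The m2 set gave 1, 6 and 2 ChIP peaks in S96 YPD, S96 4NQO and S96-I775E YPD. The causes were not tested. Depth is unknown, and 46 of the 176 regions had too few values to be tested.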
